A study of Mus musculus with 20 samples.

Results

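Hand1, Hand2 and Nkx2-3 encode transcription factors of the gut mesenchyme, the connective tissue that surrounds the epithelium and instructs its fate. The 3 genes were chosen by symbol, out of 43280 genes in the count tables, and all 3 were found in every table. HAND1 and HAND2 are basic helix-loop-helix (bHLH) proteins that bind E-box sequences as dimers with E proteins such as the products of Tcf3, Tcf4 and Tcf12, while ID proteins capture those partners and block DNA binding. They are best known for their roles in the heart, and HAND2 also acts in limb buds, branchial arches and sympathetic and enteric neurons. NKX2-3 is a homeodomain protein of the NK2 family that is needed for normal development of the spleen and of the mesenchyme of the small intestine.

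RNA was measured in sorted GFP+ cells from the intestine and the stomach of E13.5 embryos, with 2 libraries per group. The strain label was C57BL/6 for every sample, whereas the study's methods name mixed strain backgrounds. Control embryos carried Bapx1-cre and Rosa26mTmG, and Eed KO embryos carried Eed fl/fl in addition. Bapx1 is another name of Nkx3-2, an NK family gene that is active in early gut mesenchyme. Its Cre turns on membrane GFP from the Rosa26mTmG reporter in these cells and their descendants, and deletes Eed where the allele is floxed. EED is a core subunit of PRC2, the complex that places the repressive mark H3K27me3. Adult GFP+ cells came from the small intestine of tamoxifen-treated mice with Pdgfrb-Cre-ERT2 and Rosa26mTmG, again without (control) or with Eed fl/fl, and 2 libraries were made per group. Pdgfrb, which drives the adult Cre, marks pericytes and other stromal cells. Accessible chromatin was measured by ATAC-seq in the 4 embryonic groups, and each group had 1 peak list from pooled replicates. Replicates were separate samples, but which libraries share embryos was not stated, so p-values measure the spread between these samples.

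Gene counts per library ranged from 30236159 to 39606157 in the embryo and from 11404712 to 15903642 in the adult. Eed fell by 2.02 on the log2 scale in the Eed KO intestine (adjusted p = 0.00464, edgeR) and by 2.11 in the Eed KO stomach (adjusted p = 0.00175). Adult Eed measured 31.6 ± 2.62 CPM (counts per 1000000 counts, SD, n = 2) in control cells and 25.4 ± 0.455 CPM in Eed KO cells. That difference did not pass the test (log2 fold change -0.32 ± 0.21 SE, adjusted p = 0.317). The adult counts take in every exon of Eed, also those outside the floxed part, and so do the embryonic counts. The study measured the adult deletion of Eed separately, in isolated pericryptal cells. The summed CPM of 6 mesenchyme markers, among them Pdgfra, Col1a1 and Vim, lay between 11111 and 19185 in all embryonic libraries, with none of the 6 at 0.

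The genes lie on 3 chromosomes of mm10. Hand1 is on the minus strand at chr11:57828705-57832818 and has 3 exons with 1997 exonic bases. Hand2 is on the plus strand at chr8:57320983-57324517 and has 2 exons with 2235 exonic bases. Nkx2-3 is on the plus strand at chr19:43612325-43615892 and has 2 exons with 2112 exonic bases. Of the exonic bases of Hand2, 443 are shared with the antisense gene Gm28063, so in the unstranded adult counts reads from these bases cannot be told apart.

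Promoter sequences are shown because a promoter peak was called in every list at Hand2 and Nkx2-3, and the height of the Nkx2-3 peak differed between organs. RefSeq (GRCm38.p6) gave them for 2 of the 3 genes, Hand2 and Nkx2-3. Each run is the 250 bases before the transcription start on the plus strand, at chr8:57320733-57320982 for Hand2 and chr19:43612075-43612324 for Nkx2-3. Capitals mark E-boxes (CANNTG, the bHLH motif) and the NK2 core motif AAGTG, searched on both strands.
Hand2 promoter: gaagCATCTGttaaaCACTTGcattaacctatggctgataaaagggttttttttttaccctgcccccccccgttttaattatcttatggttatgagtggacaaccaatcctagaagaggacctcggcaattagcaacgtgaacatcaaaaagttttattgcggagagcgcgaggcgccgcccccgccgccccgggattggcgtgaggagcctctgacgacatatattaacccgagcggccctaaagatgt
Nkx2-3 promoter: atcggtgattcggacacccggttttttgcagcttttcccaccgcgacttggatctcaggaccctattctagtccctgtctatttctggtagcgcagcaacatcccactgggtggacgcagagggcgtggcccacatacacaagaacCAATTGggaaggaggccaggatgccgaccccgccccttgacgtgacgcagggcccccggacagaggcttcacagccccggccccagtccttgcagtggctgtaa
The Hand2 promoter held 2 E-boxes, at -246 and -235 from the start. The first was CATCTG, a variant known to be bound by HAND dimers, and an AAGTG match on the minus strand overlapped the second. The Nkx2-3 promoter held 1 E-box at -104 and no AAGTG. Both promoters held 2 CCAAT boxes (CCAAT, either strand), at -147 and -55 in Hand2 and at -105 and -102, overlapping the E-box, in Nkx2-3. Among 32851 promoters of this length, 66.2% held CANNTG, 14.4% CATCTG, 40.7% AAGTG and 33.8% CCAAT, so such matches were common. Both promoters held more CG dinucleotides than the median of 6 over all promoters, with 15 in Hand2 (72.7 percentile) and 14 in Nkx2-3 (70.6 percentile). A match describes the letters in this window and no binding was measured.

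Distal sequences are shown for 3 regions near Nkx2-3 whose peaks were not called in every list. Each run is the central 300 bases of the region on the plus strand, read from RefSeq GRCm38.p6. The region 6.2 kb downstream of the start (run at chr19:43618739-43619038) had a peak in every list but that of the control stomach. The regions at 30.7 kb (chr19:43643028-43643327) and 32.3 kb (chr19:43644746-43645045) had peaks in both intestine lists and in neither stomach list.
Nkx2-3 6.2 kb: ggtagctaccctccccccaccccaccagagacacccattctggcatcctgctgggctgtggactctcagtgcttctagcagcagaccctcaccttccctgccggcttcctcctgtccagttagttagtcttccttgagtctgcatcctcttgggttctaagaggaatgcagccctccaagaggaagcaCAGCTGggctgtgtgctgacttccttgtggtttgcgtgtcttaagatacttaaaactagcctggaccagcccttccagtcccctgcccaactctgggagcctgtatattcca
Nkx2-3 30.7 kb: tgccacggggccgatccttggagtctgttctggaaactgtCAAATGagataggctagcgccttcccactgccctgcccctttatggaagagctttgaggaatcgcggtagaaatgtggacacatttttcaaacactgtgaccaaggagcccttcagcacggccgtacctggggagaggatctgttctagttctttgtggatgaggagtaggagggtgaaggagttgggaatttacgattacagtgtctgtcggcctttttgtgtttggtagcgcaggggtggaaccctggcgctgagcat
Nkx2-3 32.3 kb: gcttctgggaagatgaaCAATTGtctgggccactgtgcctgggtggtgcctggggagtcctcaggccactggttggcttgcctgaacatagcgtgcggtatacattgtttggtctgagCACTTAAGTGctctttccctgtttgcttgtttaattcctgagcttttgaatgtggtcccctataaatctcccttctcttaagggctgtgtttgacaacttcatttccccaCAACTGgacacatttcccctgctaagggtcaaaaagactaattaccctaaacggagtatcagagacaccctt
E-boxes numbered 1, 1 and 2 in these runs, and AAGTG was found only in the 32.3 kb run, on both strands in the overlapping letters CACTTAAGTG. Among 2204 control intestine peaks of chromosome 19 cut to this length, 76.5% held CANNTG and 47.5% held AAGTG.

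At E13.5, Hand1 and Nkx2-3 were intestinal genes and Hand2 was expressed in both organs. Levels per gene length are given in TPM, transcripts per 1000000. Nkx2-3 measured 214 and 259 TPM in the 2 control intestine libraries, and 2.96 and 0.293 TPM in the 2 control stomach libraries. Hand1 measured 138 and 137 TPM in the control intestine, and 2.96 and 0.426 TPM in the control stomach. Hand2 measured 172 and 219 TPM in the control intestine, and 224 and 185 TPM in the control stomach. Hand1 and Nkx2-3 were thus far apart between the organs, with no overlap, as for 51.2% of all genes tested, and the Hand2 values of the organs interleaved. In the control intestine, Nkx2-3 exceeded Hand1 by 1.55 and 1.90 times in TPM, and Hand2 by 1.24 and 1.18 times. In both control intestine libraries each of the 3 genes ranked above the 97th percentile of TPM among all genes.

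**Figure D1:**
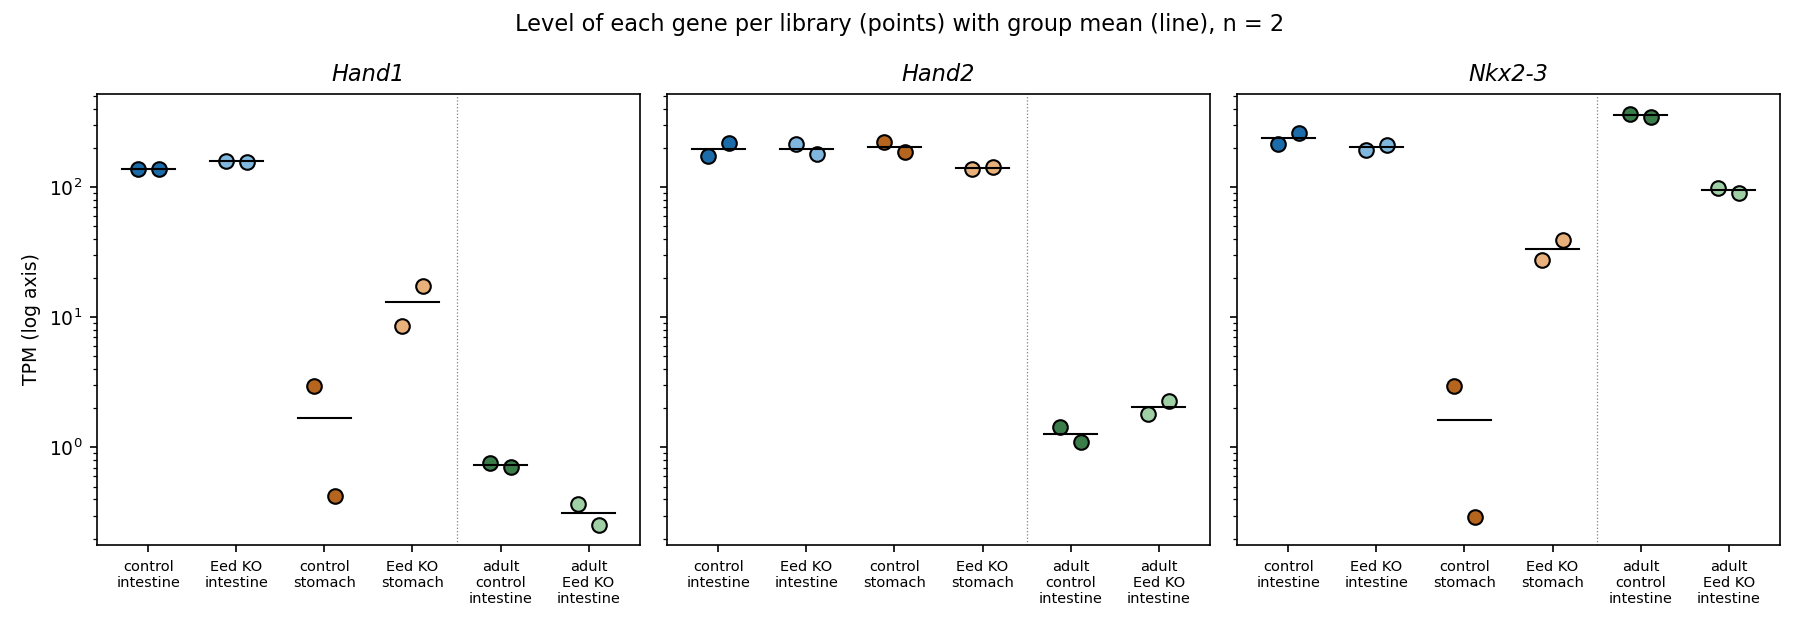
Level of Hand1, Hand2 and Nkx2-3 in TPM on a log axis, with 1 point per library and a line at the mean of each group (n = 2). Hand1 and Nkx2-3 are high in both intestine groups and low in the control stomach, where they lie at 0.293 to 2.96 TPM. Hand2 stays between 137 and 224 TPM in every embryonic library and falls to 2.28 TPM or less in the adult libraries, where Nkx2-3 remains high.

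The fitted organ difference in control cells, intestine minus stomach, was 7.24 ± 0.67 (log2 ± SE) for Nkx2-3, 6.40 ± 0.65 for Hand1 and -0.05 ± 0.15 for Hand2. A gene was called when its log2 fold change exceeded 1 in size with an adjusted p below 0.05 in the quasi-likelihood test of edgeR. Hand1 and Nkx2-3 met both cutoffs. Of the 16218 genes tested, 1.68% were called higher and 3.39% lower in the control intestine. The genes were chosen with this organ difference known, so it is given as a description. Its size depended on the control stomach libraries, in which Nkx2-3 had 71 and 8 counts and Hand1 had 67 and 11. Without control stomach replicate 1 the differences were 9.65 for Nkx2-3 and 8.33 for Hand1. Without replicate 2 they were 6.34 and 5.56. The same replicate 1 also held more Nkx2-5 (32.1 against 6.40 CPM) and Tlx1 (1.57 against 0.357 CPM), genes of the spleen primordium, which lies beside the stomach. Their part in the Hand1 and Nkx2-3 values was not tested.

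Loss of Eed in the stomach raised the RNA of both intestinal genes without reaching the intestinal level. Nkx2-3 measured 2.06 and 0.204 CPM in the control stomach and 18.6 and 25.3 CPM in the Eed KO stomach. Hand1 measured 1.94 and 0.280 CPM in the control stomach and 5.45 and 10.6 CPM in the Eed KO stomach. Both genes were higher in each Eed KO stomach library than in either control library, without overlap, as for 55.0% of all genes tested. Nkx2-3 rose by 4.32 ± 0.63 on the log2 scale (adjusted p = 0.00806, edgeR) and Hand1 by 2.89 ± 0.62 (adjusted p = 0.0316). Against the mean of the control intestine, the Eed KO stomach libraries held 11.2% and 15.2% of the Nkx2-3 CPM and 5.95% and 11.6% of the Hand1 CPM. Thus 2 of the 3 genes were called higher, beside 4.84% of all genes tested, and 0 were called lower, beside 0.808%. In bulk RNA of sorted cells, more cells that express a gene and more RNA per cell cannot be told apart.

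The size of the rise varied with single libraries. Nkx2-3 rose by 6.72 without control stomach replicate 1 and by 3.41 without control stomach replicate 2, and it was called in both. Hand1 rose by 4.82 without control stomach replicate 1 (adjusted p = 0.0125). Its call was lost without control stomach replicate 2 (2.05, adjusted p = 0.0681) and without Eed KO stomach replicate 2 (2.33, adjusted p = 0.140). It was also lost when only the stomach libraries were fitted (2.88, adjusted p = 0.0674).

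Other genes of the distal gut and other cell types moved with this rise. The posterior genes Hoxd9, Hoxd10, Hoxd11 and Hoxa11 were at 0 in both libraries of the control stomach. Their sum in the Eed KO stomach was 17.8 to 25.4 CPM, beside 36.9 to 51.6 CPM in the control intestine. The 6 mesenchyme markers summed to 12651 to 15624 CPM in the control stomach and 12934 to 19185 CPM in the Eed KO stomach, and per 1000 CPM of them Nkx2-3 measured 0.163 and 0.0131 CPM in control and 1.44 and 1.32 CPM in Eed KO. The 5 endothelial markers summed to 14.4 to 15.2 CPM in the control stomach and 23.7 to 43.8 CPM in the Eed KO stomach, and the 5 smooth muscle markers to 2716 to 2824 and 1721 to 1971 CPM. The lower smooth muscle sum came from Acta2 (mean of 1883 to 1141 CPM), Actg2 (401 to 241 CPM) and Tagln (278 to 205 CPM). Des (42.8 to 64.1 CPM) and Myh11 (166 to 195 CPM) had higher means in the Eed KO stomach. The 5 mesothelial markers summed to 537 to 572 CPM in the control stomach and 342 to 457 CPM in the Eed KO stomach. The 3 spleen primordium markers, Tlx1, Nkx2-5 and Wt1, summed to 83.0 to 111 CPM in the control stomach and 127 to 160 CPM in the Eed KO stomach, without overlap. Nkx2-5 measured 12.8 and 16.6 CPM and Tlx1 1.85 and 2.85 CPM in the Eed KO stomach, so Nkx2-5 lay within and Tlx1 above the range of the control stomach libraries. Wt1, the most abundant of the 3, measured 77.3 and 76.2 CPM in the control stomach and 112 and 140 CPM in the Eed KO stomach. It made up most of this sum and is also counted among the 5 mesothelial markers. Of the other mesothelial markers, Upk3b (mean of 290 to 149 CPM), Lrrn4 (128 to 78.6 CPM) and Krt19 (60.0 to 45.6 CPM) were lower. Msln was higher, but low in both groups (0.107 to 0.463 CPM). The part of any of these cells in the rise was not tested.

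In the Eed KO intestine none of the 3 genes was called changed. Nkx2-3 measured 153 and 180 CPM in the control intestine and 138 and 143 CPM in the Eed KO intestine. Hand1 measured 93.3 and 89.8 CPM in the control intestine and 107 and 100 CPM in the Eed KO intestine. Hand2 measured 130 and 161 CPM in the control intestine and 161 and 129 CPM in the Eed KO intestine. The Nkx2-3 and Hand1 values did not overlap between the genotypes, as for 38.3% of all genes tested, and those of Hand2 did. The fitted changes were -0.25 ± 0.48 for Nkx2-3, 0.18 ± 0.48 for Hand1 and -0.01 ± 0.15 for Hand2. By edgeR 0 of the 3 genes were called, 0 had an unadjusted p under 0.05, and 0 were called by DESeq2, beside 2.38% of all genes called higher and 0.228% called lower by edgeR. The SE leaves room for a change of Hand1 or Nkx2-3 near 1 on the log2 scale. Scaling by spike-in totals moved the median of all genes by 1.85 in this comparison and gave 2.01 for Hand1, 1.79 for Hand2 and 1.63 for Nkx2-3.

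Hand2 was the only one of the 3 with a lower mean in the Eed KO stomach. It measured 164 and 137 CPM in the control stomach and 97.8 and 97.9 CPM in the Eed KO stomach, without overlap, as for 55.0% of all genes tested. The change of -0.62 ± 0.15 did not pass either cutoff (adjusted p = 0.0531, edgeR). With spike-in totals it was 1.79, below the median of all genes at 2.39. The 8 markers of enteric neural crest and neurons, in which Hand2 is known to act, summed to 55.5 to 67.1 CPM in the control stomach and 66.3 to 76.0 CPM in the Eed KO stomach. In the intestine the same markers summed to 195 to 209 CPM in control and 98.2 to 170 CPM in Eed KO libraries, with none of the 8 at 0 in a group. Most of this sum was Ednrb, with group means of 194 CPM in the control intestine, 124 CPM in the Eed KO intestine, 53.3 CPM in the control stomach and 60.0 CPM in the Eed KO stomach. The part of these cells in the Hand2 values was not tested.

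**Figure D2:**
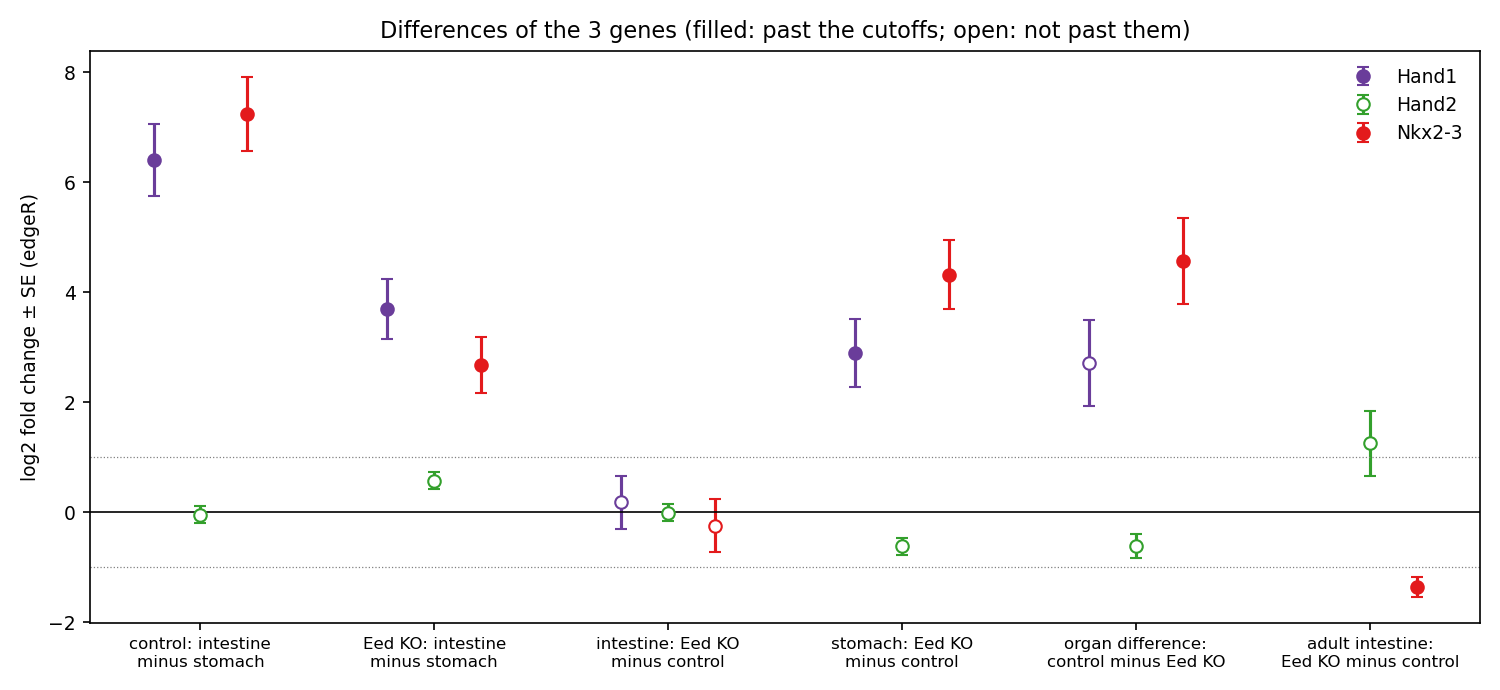
Log2 fold change with SE from edgeR for Hand1, Hand2 and Nkx2-3 in each comparison, with filled points past the cutoffs and dotted lines at -1 and 1. Hand1 and Nkx2-3 lie far above 0 between the organs and in the Eed KO stomach, and all 3 genes lie near 0 in the Eed KO intestine. Hand1 was not tested in the adult.

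Without Eed, Hand1 and Nkx2-3 were still higher in the intestine than in the stomach. Between the Eed KO organs, intestine minus stomach, Hand1 differed by 3.69 ± 0.55 (adjusted p = 0.00962, edgeR), Nkx2-3 by 2.68 ± 0.52 (adjusted p = 0.0250) and Hand2 by 0.57 ± 0.15 (adjusted p = 0.0804). Here 2 of the 3 genes were called higher in the intestine, beside 1.46% of all genes tested, and 0 lower, beside 2.94%. Neither gene overlapped between these groups, as for 44.5% of all genes. The Nkx2-3 call was lost without Eed KO stomach replicate 1 (2.47, adjusted p = 0.121), without Eed KO stomach replicate 2 (2.92, adjusted p = 0.101) and with DESeq2 (2.68, adjusted p = 0.0622). The Hand1 call was lost without Eed KO stomach replicate 1 (3.29, adjusted p = 0.0505).

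The interaction of organ and genotype tested the change in the organ difference, as the control difference minus the Eed KO difference, with a cutoff of 0.2 on the adjusted p. Nkx2-3 passed it with 4.57 ± 0.79 (adjusted p = 0.122, edgeR), so 1 of the 3 genes was called, beside 0.271% of all genes called in this direction. Hand1 measured 2.71 ± 0.79 (adjusted p = 0.511) and Hand2 -0.61 ± 0.22 (adjusted p = 0.701). Hand1 passed with a replicate block within genotype (2.71, adjusted p = 0.0751) and with no filter on low counts (2.70, adjusted p = 0.0129). The Nkx2-3 call was lost without control intestine replicate 1 (4.68, adjusted p = 0.353), without control intestine replicate 2 (4.44, adjusted p = 0.430) and without Eed KO stomach replicate 2 (4.33, adjusted p = 0.351). Without control stomach replicate 1 Hand1 was called as well (4.64, adjusted p = 0.110). The 5 embryonic comparisons share libraries, so their values for a gene are not independent.

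Ordered by mean TPM, Hand1 ran from the Eed KO intestine (157 ± 1.80 SD, n = 2) and control intestine (137 ± 0.677) to the Eed KO stomach (13.0 ± 6.27) and control stomach (1.69 ± 1.79). Nkx2-3 ran from the control intestine (237 ± 32.2 TPM) and Eed KO intestine (201 ± 12.7) to the Eed KO stomach (33.4 ± 8.11) and control stomach (1.63 ± 1.89). Hand2 ran from the control stomach (205 ± 27.2 TPM) through the Eed KO intestine (196 ± 24.1) and control intestine (196 ± 33.4) to the Eed KO stomach (140 ± 4.10). For Hand1 and Nkx2-3 the intestine groups were neighbours whose difference did not pass the test, and the stomach groups were neighbours whose difference did. Between the lowest intestine group and the Eed KO stomach the libraries did not overlap for either gene. For Nkx2-3 this pair was the Eed KO organs, between which 44.5% of all genes tested did not overlap. For Hand1 it was the control intestine and the Eed KO stomach, for which the share was not computed. The upper 3 groups of Hand2 overlapped, and its Eed KO stomach lay below all of them.

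The ATAC-seq peak at the Nkx2-3 promoter was highest in the lists of the groups with the most Nkx2-3 RNA. A promoter peak was one within 1000 bp of the start, and its height is the fold enrichment over the MACS2 background. At Nkx2-3 this fold was 6.51 in the control intestine, 5.70 in the Eed KO intestine, 2.74 in the control stomach and 3.61 in the Eed KO stomach. The -log10 q of these peaks was 113, 75.8, 4.75 and 26.0 in the same order. Its order over the lists was that of the Nkx2-3 CPM over the groups. With 1 pooled list per condition there is no test, so the ratios between lists were set beside those of the 14085 tested genes with a promoter peak in every list. The Nkx2-3 ratio of control intestine to control stomach was 2.38, at the 99.99 percentile of these genes, whose median was 1.01. Its ratio of Eed KO stomach to control stomach was 1.32, at the 98.4 percentile, beside a median of 0.990. Its ratio of Eed KO intestine to Eed KO stomach was 1.58, at the 99.9 percentile, and that of Eed KO intestine to control intestine was 0.876, at the 23.1 percentile. The lists carry no read counts, so the counting error of a fold is unknown.

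Hand1 had a promoter peak in every list, the stomach lists included, with similar folds over peaks of unlike width. The fold was 2.96 in the control intestine, 2.48 in the Eed KO intestine, 3.01 in the control stomach and 2.61 in the Eed KO stomach. The -log10 q of these peaks was 16.8, 8.64, 5.31 and 6.40 in the same order. The folds do not compare the same bases, so they do not show equal accessibility. The shape differed, since the peak spanned 3889, 4084 and 2689 bp in the control intestine, Eed KO intestine and Eed KO stomach, and covered the start. In the control stomach it spanned 605 bp and ended 590 bp upstream of the start, and separate smaller peaks lay within the gene. At Hand2 the fold was 3.07, 2.82, 3.11 and 2.82 in the same order of lists, and the peak spanned 2563 to 3257 bp with the start inside it. Hand1 and Hand2 were low beside the median promoter fold of 6.46 to 6.91 of the tested genes, under the 5th percentile in every list. Nkx2-3 stood at the 44.1 and 39.1 percentile in the control and Eed KO intestine lists. In the control and Eed KO stomach lists it stood at the 1.93 and 8.73 percentile.

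**Figure D3:**
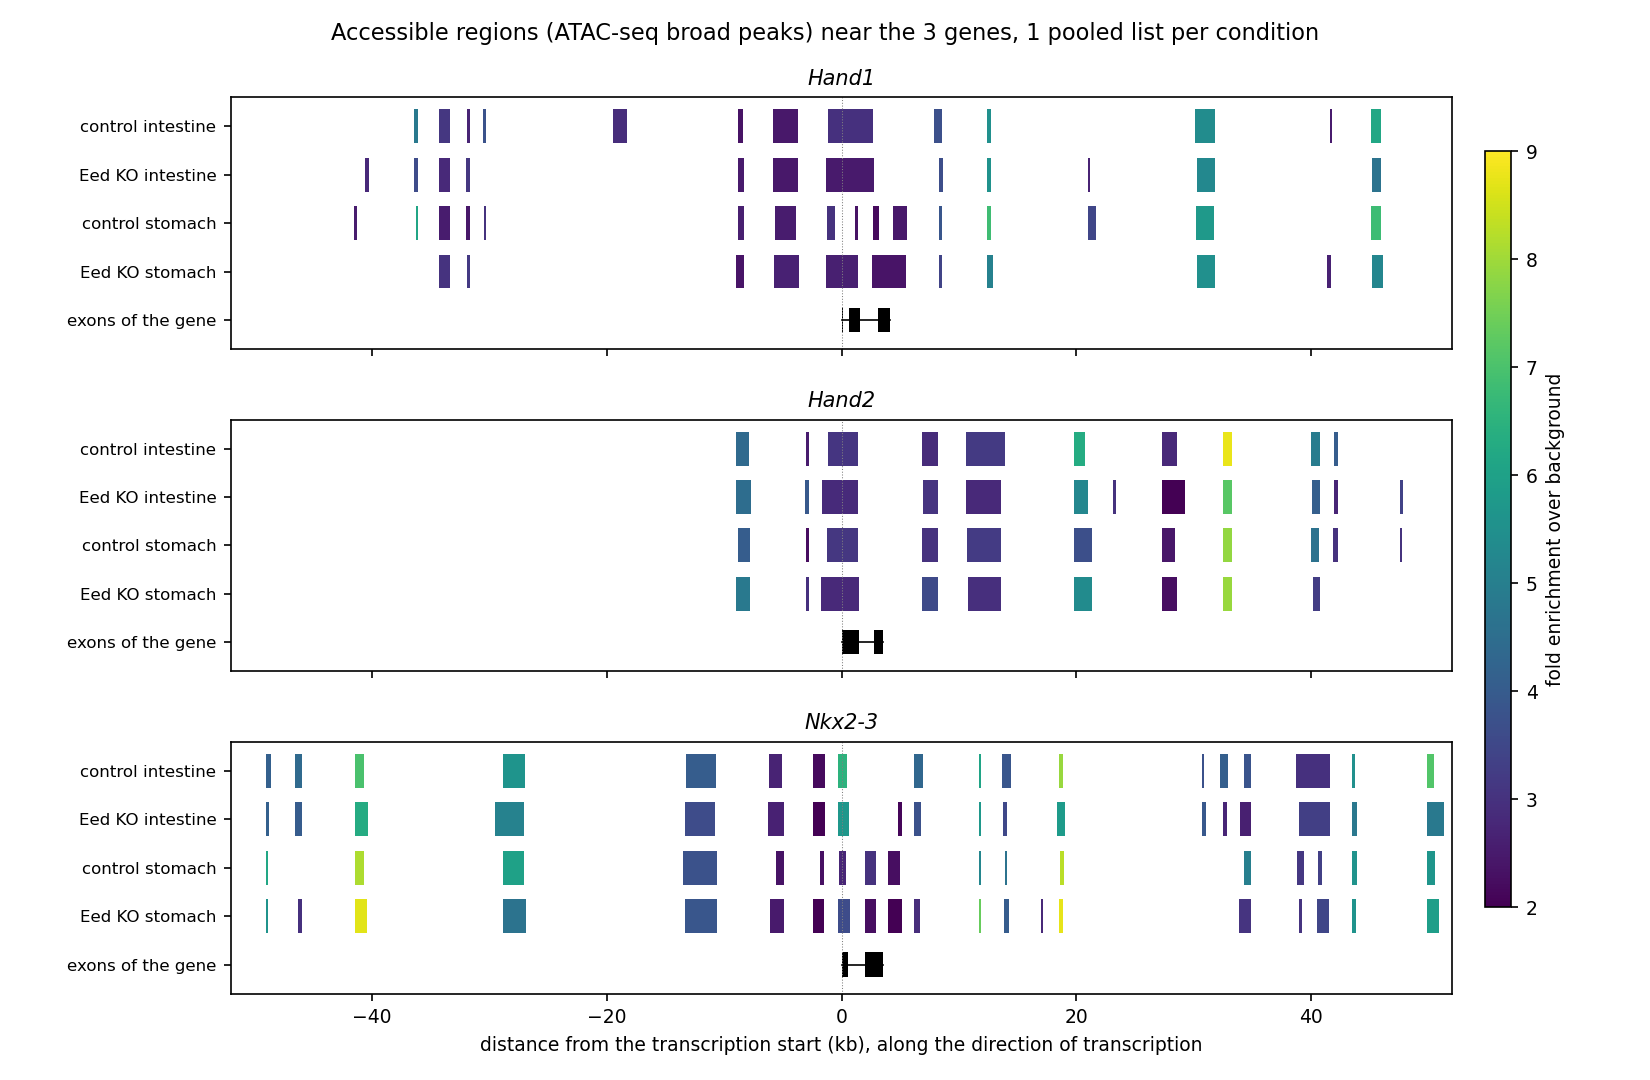
Broad ATAC-seq peaks within 50 kb of the transcription start of Hand1, Hand2 and Nkx2-3, drawn along the direction of transcription, with 1 row per pooled list, colour for the fold enrichment and black boxes for exons. The Nkx2-3 promoter peak is high in the intestine lists (6.51 and 5.70) and low in the control stomach (2.74). Most other regions recur in every list.

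Peaks near the genes were largely common to both organs and genotypes. Joined over the 4 lists, 16 regions lay within 50 kb of the Hand1 start, 12 near Hand2 and 21 near Nkx2-3. Of these, 9, 9 and 14 had a peak in every list. No joined region near Hand1 or Hand2 was found in both intestine lists only or in both stomach lists only. Within 1 joined region of Hand1, however, the stomach peaks ran to 5552 bp (control) and 5520 bp (Eed KO) past the start. The intestine peaks of that region ended at 2696 bp (control) and 2791 bp (Eed KO). Around Nkx2-3, 2 joined regions were found in the intestine lists only and 1 in the stomach lists only. The region at chr19:43643007-43643350 had folds of 3.72 in the control intestine and 3.90 in the Eed KO intestine. The region at chr19:43644581-43645211 had folds of 4.10 and 2.72. Both lie downstream of Nkx2-3, outside its exons and introns. The stomach region, at chr19:43614346-43615296, lies in exon 2 and had folds of 3.00 in the control and 2.26 in the Eed KO stomach.

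A further 2 regions near Nkx2-3 were absent from the control stomach list alone. Upstream, chr19:43565772-43566404 had folds of 4.39 in the control intestine, 4.01 in the Eed KO intestine and 2.97 in the Eed KO stomach. Downstream, chr19:43618501-43619278 had folds of 4.31, 3.74 and 2.88. In both regions the Eed KO stomach thus had a peak that was lower than those of the intestine lists. A missing peak says that the caller did not list the region, not that it was closed. Hand1 had 1 region in both control lists only, at chr11:57863078-57863326 (3.75 in the intestine and 2.99 in the stomach). The tallest region near Hand2, at chr8:57353465-57354221, had folds of 8.78, 7.19, 7.86 and 7.92. Another, at chr8:57340801-57342328, had a fold of 3.68 in the control stomach and 5.23 to 6.31 in the other lists.

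Among the genes beside the 3 loci, Gm20467 was called in the same embryonic pairs of groups as Nkx2-3. It starts 1700 bp upstream of Nkx2-3 on the opposite strand. It measured 8.32 and 7.40 CPM in the control intestine, 6.89 and 6.22 in the Eed KO intestine, 0.174 and 0 in the control stomach and 0.939 and 1.01 in the Eed KO stomach. It was thus low where Nkx2-3 was low. Its difference was 6.52 ± 0.58 between the control organs (adjusted p = 0.000972, edgeR), 3.52 ± 0.66 in the Eed KO stomach (adjusted p = 0.0202) and 2.74 ± 0.42 between the Eed KO organs (adjusted p = 0.0105). Its interaction of 3.78 ± 0.77 did not pass (adjusted p = 0.218). Of 5 genes starting within 100 kb of Nkx2-3, 4 were tested, and Got1, Slc25a28 and Entpd7 were not called in any embryonic comparison. Of 5 near Hand1, 2 were tested (Sap30l and 2010001A14Rik) and 0 were called by edgeR or DESeq2 in any comparison, with 1 at an unadjusted p under 0.05 between the control organs and 0 in the others. Near Hand2, 2 of 3 genes were tested. Of these 5033428I22Rik, which starts 11135 bp downstream, was called higher in the Eed KO intestine than in the Eed KO stomach (20.2 against 8.24 CPM, 1.30 ± 0.24, adjusted p = 0.0223). Its change in the Eed KO stomach, from 16.2 to 8.24 CPM, missed both cutoffs (-0.97 ± 0.24, adjusted p = 0.0525), as did that of Hand2 (-0.62 ± 0.15, adjusted p = 0.0531).

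Across the 8 embryonic libraries, the genes with the most similar pattern to Nkx2-3 were its neighbour Gm20467 (r = 0.993), Hlx (0.992), Hand1 (0.983), Clca1 (0.979) and Dkk2 (0.978). The measure was Pearson's r of log2 CPM over 13386 genes with a mean of at least 1 CPM. The points share 4 groups of 2 libraries, so r describes the order of the groups and has no p. For Hand1 the most similar genes were Mab21l2 (r = 0.995), Gm20467 (0.994), Gng2 (0.993), Dhrs7 (0.989) and Hlx (0.985). For Hand2 they were Dmap1 (r = 0.960), Pid1 (0.959), Htra2 (0.957), Ddx49 (0.951) and Idua (0.950), none of which was called in an embryonic comparison. Hand2 was unlike the other 2 genes, with r = 0.159 to Hand1 and 0.0165 to Nkx2-3.

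HLX is a homeodomain factor of the visceral mesenchyme that is needed for growth of the gut. Hlx measured 78.1 and 104 CPM in the control intestine, 111 and 119 in the Eed KO intestine, 12.6 and 3.37 in the control stomach and 29.7 and 38.6 in the Eed KO stomach. Like Nkx2-3 and Hand1, it was called higher in the Eed KO stomach (7.99 to 34.1 CPM, adjusted p = 0.0460, edgeR). Mab21l2 measured 519 and 598 CPM in the control intestine, 429 and 424 in the Eed KO intestine, 3.45 and 0.255 in the control stomach and 9.36 and 15.5 in the Eed KO stomach. Its change in the Eed KO stomach of 2.78 ± 0.73 was not called (adjusted p = 0.0627). In Nkx2-3, Hand1, Hlx and Mab21l2 control stomach replicate 1 lay above replicate 2.

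**Figure D4:**
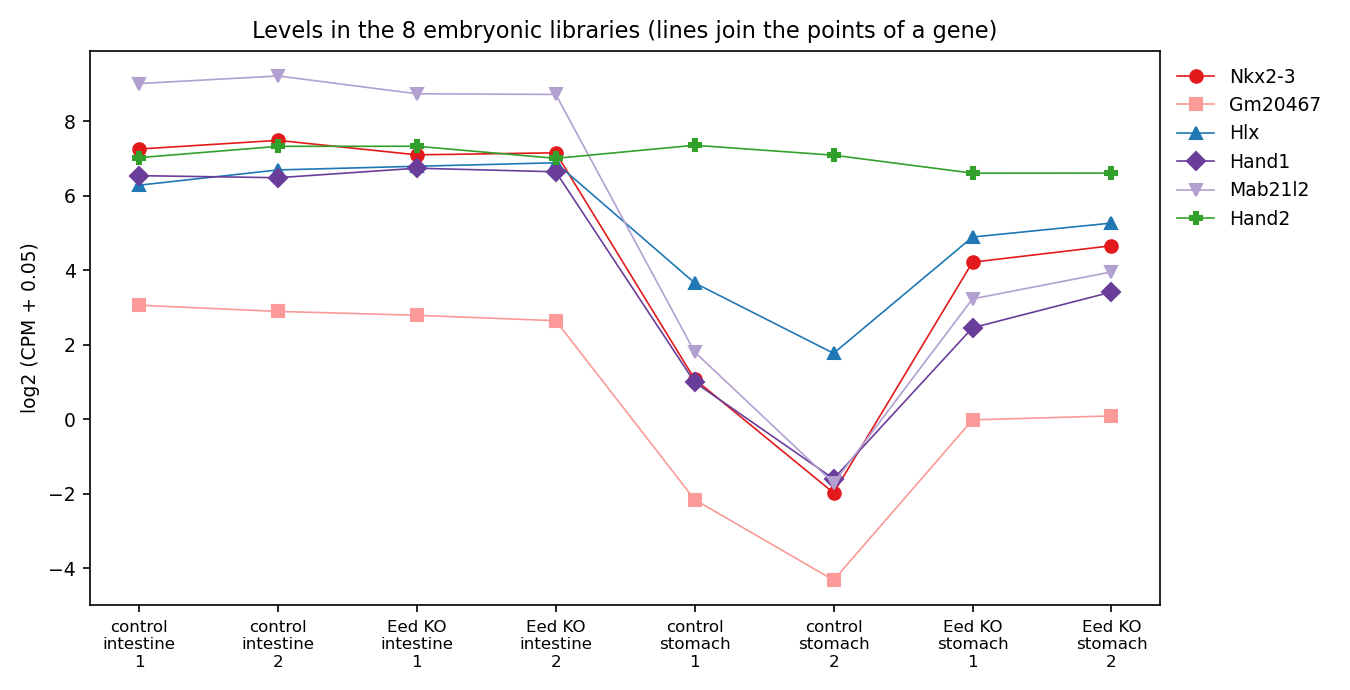
Log2 of CPM plus 0.05 in the 8 embryonic libraries for the 3 genes and for Gm20467, Hlx and Mab21l2, with lines joining the points of a gene. All but Hand2 are high in the 4 intestine libraries, lowest in control stomach replicate 2 and intermediate in the Eed KO stomach.

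The dimer partners of the HAND proteins and their inhibitors were expressed in every embryonic group. Of Tcf3, Tcf4, Tcf12 and Id1 to Id4, all 7 were tested and 0 were called by edgeR or DESeq2 in any embryonic comparison, with 2 at an unadjusted p under 0.05 between the control organs and 0 in the others. Tcf3 lay between 186 and 238 CPM and Tcf12 between 231 and 295 CPM in all 8 libraries. Of 9 other factors of the Twist family, to which the HAND genes belong, 7 were tested. Between the control organs, Twist1, Tcf23 and Msc were called higher in the stomach, beside 3.39% of all genes tested. With loss of Eed, Msc rose in the intestine (1.20 to 5.47 CPM, 2.17 ± 0.29, adjusted p = 0.0112, edgeR) and Twist2 in the stomach (14.6 to 29.2 CPM, 1.01 ± 0.19, adjusted p = 0.0204). Msc fell by 1.07 in the stomach (7.89 to 3.75 CPM, adjusted p = 0.0496), but measured 1.24 with spike-in totals, where the median of all genes was 2.39. Of all genes tested, 2.38% were called higher in the Eed KO intestine, and 4.84% higher and 0.808% lower in the Eed KO stomach.

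Among 8 other genes of the NK2 and NK3 families, 4 were tested. Nkx2-5, a factor of the heart, spleen and pyloric mesenchyme, was called lower in control intestine than in stomach libraries (0.828 against 19.3 CPM, -4.56 ± 0.82, adjusted p = 0.0169, edgeR). In this it was opposite to Nkx2-3. Nkx2-2 and Nkx2-9 were called higher in the Eed KO stomach, beside 4.84% of all genes tested, but stayed at a mean of 0.735 CPM or less. Both had means of 0.0127 CPM or less in the control groups. They passed the filter on low counts through Eed KO libraries, so with loss of Eed they could only rise. In the Eed KO intestine 0 of the 4 were called by edgeR or DESeq2, although 3 had an unadjusted p under 0.05.

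Genes tied to Nkx2-3 in spleen and gut were Madcam1, Bmp2, Bmp4, Tlx1 and Wt1. With loss of Eed in the embryo, edgeR called 0 of these 5 in either organ, although 3 in the intestine and 2 in the stomach had an unadjusted p under 0.05, and DESeq2 called 1 in the intestine and 0 in the stomach. Wt1, a factor of mesothelium and spleen primordium, was lower in the intestine than in the stomach in control (-1.04 ± 0.19, adjusted p = 0.0185) and in Eed KO cells (-1.23 ± 0.19, adjusted p = 0.0116).

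Many genes tied to HAND factors in heart, limb, branchial arch and neurons rose with loss of Eed. Of 20 genes, 19 were tested. Among these, Tbx5, Dlx5, Dlx6 and Msx2 had means of 0.18 CPM or less in both control groups. They passed the filter on low counts through the Eed KO groups, so with loss of Eed they could only rise. The counts and medians that follow include these genes and are a description. In the Eed KO intestine 10 of the 19 were called higher and 0 lower. Their median was 2.16 on the log2 scale beside 0.01 over all genes, of which 2.38% were called higher and 0.228% lower. Of the same genes in the Eed KO stomach, 11 were called higher and 0 lower, with a median of 1.46 beside 0.00 over all genes, of which 4.84% were called higher and 0.808% lower. They included the cardiac factors Gata4 (1.20 to 15.3 CPM for the intestine, 15.0 to 90.5 CPM for the stomach), Tbx20 (0.373 to 6.65 and 0.959 to 12.6 CPM) and Gata6 (17.4 to 42.2 and 34.6 to 101 CPM). Tbx5, a factor of heart and forelimb, had no counts in the control intestine and measured 3.44 CPM in the Eed KO intestine. Its stomach level rose from 0.151 to 10.1 CPM (6.04 ± 0.44, adjusted p = 0.00101, edgeR). Between the control organs, 5 of the 19 were lower in the intestine (Gata3, Gata4, Gata5, Isl1 and Msx1) and 0 higher, the opposite direction to Hand1. Of all genes tested, 3.39% were called lower and 1.68% higher in that comparison.

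Among 15 transcription factors of the gut mesenchyme, Hlx was the 1 gene called higher in control intestine than in stomach libraries, as Hand1 and Nkx2-3 were, and 7 were called lower. Of all genes tested, 1.68% were called higher and 3.39% lower. With loss of Eed in the intestine 5 of the 15 rose and 0 fell, beside 2.38% and 0.228% of all genes tested. The 5 were Barx1, a stomach mesenchyme factor (1.01 to 11.3 CPM, 3.53 ± 0.37), Pitx1, Mecom, Prrx1 and Sox9. Loss of Eed in the stomach raised 2, Hlx and Prrx1, and 0 fell, beside 4.84% and 0.808% of all genes tested. The stomach factor Barx1 reached 11.3 CPM in the Eed KO intestine, beside 592 CPM in the control stomach, while Nkx2-3 reached 21.9 CPM in the Eed KO stomach, beside 167 CPM in the control intestine.

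In the adult intestine, of the 3 genes Nkx2-3 alone was abundant. It measured 364 and 348 TPM in control and 98.3 and 90.1 TPM in Eed KO libraries. Hand2 measured 1.45 and 1.11 TPM in control and 1.81 and 2.28 TPM in Eed KO libraries, and Hand1 0.763 and 0.710 TPM and 0.368 and 0.255 TPM. Set beside the embryonic intestine, at 214 and 259 TPM for Nkx2-3 and 137 to 219 TPM for the HAND genes, the adult HAND values were low. Library kit, strand, Cre driver and sorted cells differ between the ages, so no test was made. Hand1 had 4 to 8 counts per adult library and was removed by the filter on low counts. Hand2 had 14 to 40 counts and its change of 1.25 ± 0.59 was not called (adjusted p = 0.173, edgeR).

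Nkx2-3 was lower in the adult Eed KO libraries, and so was the summed level of the mesenchyme markers. It measured 295 and 291 CPM in control and 113 and 116 CPM in Eed KO libraries, a change of -1.36 ± 0.18 (adjusted p = 0.00274, edgeR), which became 0.20 ± 0.35 (adjusted p = 0.620) when libraries were scaled to the summed mesenchyme markers. This scaling moved the median of all genes by 1.55, and Nkx2-3 stayed below that median. Its groups did not overlap, as for 65.3% of all genes tested. Of the 2 genes tested 1 was called lower, beside 7.23% of all genes called lower and 12.3% called higher. The 6 mesenchyme markers summed to 8885 to 9189 CPM in control and 2628 to 3733 CPM in Eed KO libraries. Col1a1 (mean of 3218 against 1028 CPM) and Col3a1 (4192 against 1379 CPM) made up most of this sum. Pdgfra fell from 1035 to 298 CPM on average, while Vim measured 401 against 351 CPM and Foxf1 48.5 against 33.4 CPM. By edgeR 3 of the 6 were called lower (Col1a1, Col3a1 and Pdgfra), and Vim, Foxf1 and Pdgfrb were not. The 5 leukocyte markers summed to 559 to 676 CPM in control and 11262 to 13014 CPM in Eed KO libraries. Smooth muscle markers summed to 1778 to 2167 CPM in control and 2999 to 3521 CPM in Eed KO libraries, and endothelial markers to 96.0 to 96.1 and 145 to 211 CPM. The 4 pancreas markers summed to 39.7 to 78.9 CPM in control libraries, 31.9 CPM in Eed KO replicate 1 and 2099 CPM in Eed KO replicate 2, which stood apart. The Nkx2-3 change was -1.38 without that library (adjusted p = 0.00362). Per 1000 CPM of mesenchyme markers, Nkx2-3 measured 33.2 and 31.7 CPM in control and 30.4 and 44.0 CPM in Eed KO libraries, so the groups overlapped on this scale. Per CPM of Pdgfra it measured 0.256 and 0.317 in control and 0.346 and 0.429 in Eed KO, whereas per CPM of Pdgfrb it measured 1.82 and 2.35 in control and 1.27 and 1.25 in Eed KO. The ratio to single markers thus differed in direction. The part of the cell mixture in the fall of Nkx2-3 was not tested further.

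**Figure D5:**
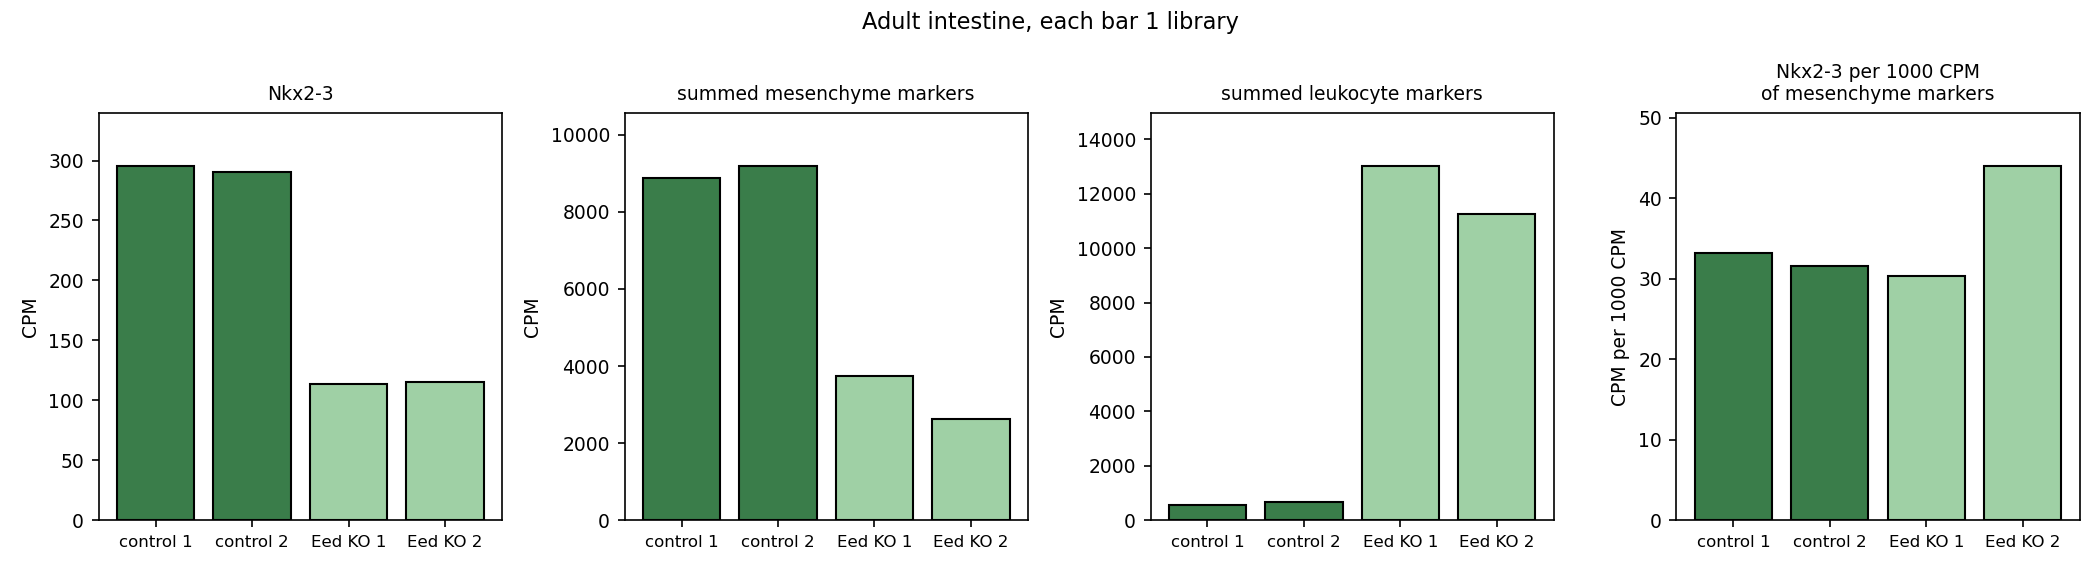
Adult intestine with 1 bar per library, from left to right the CPM of Nkx2-3, the summed CPM of 6 mesenchyme markers, the summed CPM of 5 leukocyte markers, and Nkx2-3 per 1000 CPM of the mesenchyme markers. Nkx2-3 and the mesenchyme markers are lower in both Eed KO libraries, the leukocyte markers are higher, and the ratio spans 30.4 to 44.0 in Eed KO beside 31.7 to 33.2 in control.

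The neighbour Gm20467 measured 22.8 and 25.4 CPM in adult control and 13.8 and 12.5 CPM in adult Eed KO libraries, a change of -0.87 ± 0.24 that missed the cutoff on size (adjusted p = 0.0404, edgeR). Got1, which encodes a transaminase and starts 87720 bp upstream of Nkx2-3, rose from 23.3 to 167 CPM (2.85 ± 0.29, adjusted p = 0.000797). Beside Hand2, AV026068, whose start lies 124 bp upstream on the opposite strand, rose from 0.427 to 3.52 CPM (3.03 ± 0.87, adjusted p = 0.0457, edgeR). The SD of AV026068 in the adult Eed KO libraries was 3.00 CPM (n = 2), and its lowest counts were 4 in control and 14 in Eed KO. The vascular addressin gene Madcam1, which is reduced in mice without Nkx2-3, rose from 5.34 to 22.3 CPM (2.07 ± 0.30, adjusted p = 0.00386). Bmp4 fell by 1.98 (648 to 164 CPM, adjusted p = 0.00485), and the other tested genes tied to Nkx2-3 were not called. The study reported the opposite direction, Bmp4 as upregulated with loss of PRC2 in the adult, from counts normalized with spike-ins. Scaling to spike-in totals here, which is not the study's own spike-in method, left Bmp4 lower in the adult Eed KO libraries. The source of the difference from the study was not tested. Id2, an inhibitor of bHLH dimers that leukocytes also express, rose from 96.1 to 723 CPM (2.91 ± 0.27, adjusted p = 0.000562). Of 3 tested genes of the Twist family, Tcf21 (394 to 83.9 CPM) and Msc (51.3 to 14.3 CPM) fell. Of all genes tested in the adult, 7.23% were called lower and 12.3% higher. Of 7 tested genes tied to HAND factors, Gata3 rose and Gli3 and Ednra fell, of which Ednra measured 0.26 when scaled to the mesenchyme markers, below the median of all genes at 1.55. Of 13 gut mesenchyme factors tested, Foxf2, Foxl1, Osr1 and Sox9 fell, of which Osr1 measured 0.55 and Sox9 0.36 on that scale, also below this median. Values on that scale are given only for genes whose sign changed. The part of the lower mesenchyme markers in the other falls was not tested.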

How the data were processed

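RNA-seq data were 12 tables of gene counts, which the authors deposited without normalization. Per the labels and the submitters' processing notes, reads were trimmed with Trimmomatic 0.32, aligned with STAR 2.5.1b to GRCm38/mm10 with spike-in sequences, and counted on GENCODE vM4 with featureCounts (notes name 1.5.0 and 2.5.0). Embryonic libraries were stranded poly(A) libraries, and adult libraries were unstranded low-input libraries counted as read pairs. ATAC-seq reads were aligned with BWA 0.7.8, and replicates were pooled. In the 4 broad peak lists from MACS2 2.1.2, the authors gave a fold enrichment over background and a -log10 q value for each peak, with the weakest peaks at a -log10 q close to 1.

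Counts were fitted with edgeR 4.0.16 (limma 3.58.1, R 4.3.3), with TMM scaling, filterByExpr and the quasi-likelihood F-test, in 1 fit of the 8 embryonic libraries and 1 of the 4 adult libraries. P-values were adjusted by the method of Benjamini and Hochberg over all genes tested. CPM are after TMM scaling, and TPM use exonic lengths from the adult file headers. SE were computed as the fold change over the square root of F. Alternatives were DESeq2 1.42.0, other scalings, no filter, a replicate block, fits of only the groups compared and leaving out each library. One scaling, to the mesenchyme markers, was added after seeing the data. The scripts were tested on simulated data.

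The 3 genes and all gene lists were chosen with earlier results of these data known, and 2 listed genes are not reported here. Named genes are the 3 genes, listed genes that passed a test or on whose level a result turns, genes within 100 kb, the 5 most similar genes of each, Eed, and cell type markers. Intervals of a fold enrichment were not computed because the lists hold no counts.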

Additional observations from a re-analysis of the deposited data

Results flagged for a closer look

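By the interaction test of edgeR at an adjusted p under 0.2, the difference between the organs changed with loss of Eed in 6 genes. These count Hand1, Hand2, Nkx2-3 and the gene lists, without the cell type markers. Of the 4 posterior Hox genes among the markers, 3 also passed, with positive values. Among the 6 genes, Nkx2-3 had the only positive value, 4.57 (adjusted p = 0.122), which means that its excess in the intestine was smaller without Eed. The 5 others were negative. In 4 of them the excess in the stomach was smaller without Eed, and in Msc the order of the means changed, since control cells held 1.20 CPM (intestine) against 7.89 CPM (stomach), and Eed KO cells 5.47 against 3.75 CPM. They were Barx1 (-4.31, adjusted p = 0.0310), Mecom (-3.48, adjusted p = 0.0303), Msc (-3.24, adjusted p = 0.0475), Sox9 (-1.74, adjusted p = 0.108) and Nr2f1 (-1.27, adjusted p = 0.0733).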

How the results depend on the processing

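For the 17 values of Hand1, Hand2 and Nkx2-3 that were tested, 96 of 108 results under other settings and 67 of 80 results without 1 library kept their direction and their side of the cutoffs. Of the 12 exceptions under other settings, 6 came from spike-in totals, which moved the median of all genes by 0.30 between the control organs, 1.85 in the Eed KO intestine, 2.39 in the Eed KO stomach and -0.24 between the Eed KO organs. With spike-in totals, Hand2 measured 0.25 between the control organs, 1.79 in the Eed KO intestine and 1.79 in the Eed KO stomach, Hand1 and Nkx2-3 measured 2.01 and 1.63 in the Eed KO intestine, and Nkx2-3 measured 2.36 between the Eed KO organs (adjusted p = 0.268). Genes called with them numbered 155 between the control organs, 13688 in the Eed KO intestine, 15438 in the Eed KO stomach, 115 between the Eed KO organs and 20 for the interaction, beside 822, 423, 916, 714 and 75 with TMM. DESeq2 gave 2.68 for Nkx2-3 between the Eed KO organs, and called 665 genes in the Eed KO intestine and 205 for the interaction. With no filter, 800 and 237 genes were called in these comparisons, and Hand1 passed the interaction with 2.70. With only the groups compared, 244 genes were called in the Eed KO intestine and 397 between the Eed KO organs, and Hand1 in the Eed KO stomach measured 2.88 and was not called. Scaled to the adult mesenchyme markers, which moved the median of all genes by 1.55, 10063 genes were called in place of 2944, Hand2 measured 2.82 (adjusted p = 0.00424) and Nkx2-3 0.20. Promoter peaks overlapped in 3 of 6 pairs of lists for Hand1 when at least 50% of each peak had to be shared, in place of 6, and Nkx2-3 had a promoter peak in 3 lists at a -log10 q of at least 5, in place of 4. The causes were not tested.

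The labels number replicates 1 and 2 in every group but do not say that a number marks shared embryos. Deviations of same-numbered libraries correlated at 0.265 between the control organs and 0.628 between those of Eed KO embryos, at 0.047 to 0.151 across genotypes and at -0.060 in the adult. A replicate block by number called 187 genes for the interaction. A replicate block within genotype called 350 genes for the interaction and 1131 between the Eed KO organs, and Hand1 then passed the interaction with 2.71. The block by number changed no call of the 3 genes.

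Without 1 library, genes called numbered 370 to 500 between the control organs, 74 to 363 in the Eed KO intestine, 344 to 650 in the Eed KO stomach, 304 to 528 between the Eed KO organs, 27 to 97 for the interaction and 2299 to 3126 in the adult. Hand1 measured 2.05 to 4.82 in the Eed KO stomach, 3.29 to 4.25 between the Eed KO organs and 1.87 to 4.64 for the interaction. Nkx2-3 measured 2.47 to 2.92 between the Eed KO organs and 3.66 to 6.97 for the interaction. Hand2, which was not called without any 1 library, measured -0.20 to 0.11 between the control organs and -0.18 to 0.15 in the Eed KO intestine. Depth limits the Hand1 and Nkx2-3 values of the control stomach, at 8 to 71 counts a library, and the adult Hand1 and Hand2 values, at 4 to 40.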
